A study of Mus musculus with 45 samples.

Results

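The genes described here are 4 members of the Ifitm family, Ifitm1, Ifitm2, Ifitm3 and Ifitm6, taken by symbol from a table of 55367 gene symbols that holds 7 Ifitm genes in all. They were followed through scaffolds, lungs, spleens and primary tumors in 45 libraries from female BALB/c mice. Ifitm1 was chosen by the study for a 9-gene signature that separates the scaffolds of 4T1 mice from all other scaffolds, so the scaffold differences between 4T1 and the other groups are given as a description without a test, for the whole family. The question followed in the other tissues is whether Ifitm1 moved alone in 4T1 mice or together with its neighbors.

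All mice carried porous polycaprolactone scaffolds under the skin, biomaterial implants into which host cells migrate. Control mice received no tumor cells. The other mice were inoculated in a mammary fat pad with 67NR, 4T07 or 4T1 cells, 2000000 in 50 µL of PBS, and every tissue was taken on day 14. The 3 lines derive from a single spontaneous mammary tumor of a BALB/cfC3H mouse: 67NR forms tumors that do not spread, 4T07 cells leave the tumor without forming nodules, and 4T1 is metastatic. Each of the 15 combinations of tissue and mouse group had 3 libraries, which are named by their library number. Tissues cannot be assigned to individual mice from the labels, each line stands for its class of tumor alone, and p-values measure the spread between these libraries only.

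Interferon-induced transmembrane proteins are short proteins of the plasma membrane and endosomes that hinder the entry of enveloped viruses into cells. Several of them are induced by interferons, and in mice they lie side by side in a gene cluster. Ifitm3 acts mainly in endosomes, Ifitm1 mainly at the cell surface, and Ifitm2 is a close relative of Ifitm3, whereas Ifitm6 is a rodent member that has been studied less.

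In the RefSeq gene order the cluster runs Ifitm5, Ifitm2, Ifitm1, Ifitm3, Ifitm6. Ifitm1 is read from the plus strand of chromosome 7, and Ifitm2, Ifitm3 and Ifitm6 from the minus strand. The last 100 bases before the RefSeq start of each gene (GRCm38.p6, 5′ to 3′ on the strand of the gene) are shown because the members share a neighborhood but not the same short motifs. Capitals mark the repeat GAAANNGAAA on either strand, the core of an interferon-stimulated response element, and the gamma-activated motif TTCNNNGAA, which reads the same on both strands.
Ifitm1, plus strand, chr7:140967976-140968075: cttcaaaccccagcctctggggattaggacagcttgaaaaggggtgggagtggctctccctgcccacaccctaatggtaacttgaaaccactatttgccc
Ifitm2, minus strand, chr7:140955962-140956061: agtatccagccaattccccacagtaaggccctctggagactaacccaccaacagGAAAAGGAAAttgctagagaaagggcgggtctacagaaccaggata
Ifitm3, minus strand, chr7:141010745-141010844: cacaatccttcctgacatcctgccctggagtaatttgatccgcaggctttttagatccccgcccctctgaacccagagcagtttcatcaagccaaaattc
Ifitm6, minus strand, chr7:141016893-141016992: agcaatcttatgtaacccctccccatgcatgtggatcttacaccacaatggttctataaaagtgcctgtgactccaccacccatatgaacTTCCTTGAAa

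The full windows searched ran from 250 bases before to 50 bases after the start. Ifitm2 held a single GAAANNGAAA match that begins 46 bases before the start. Ifitm3 held a pair of them just after the start, at bases 3 and 20, in the stretch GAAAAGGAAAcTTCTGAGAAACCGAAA (chr7:141010716-141010742, minus strand), where a TTCNNNGAA match at base 14 overlaps the second repeat. Ifitm6 held a TTCNNNGAA match that begins 10 bases before the start, and the Ifitm1 window held neither motif. Of all 32851 windows in the table, 3.44% held the repeat and 8.30% the gamma-activated motif, so each motif is found at many genes, and a match of letters is a description only.

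Library totals ran from 3491888 to 8175380 counts. Levels are given as CPM, the counts of a gene scaled to a common library total, and because each transcript gives tags near its 3′ end, levels are compared between libraries but not between genes. The lungs of 4T07 mice stood apart from the other lungs in all 3 libraries. Their summed level of 6 lung epithelial markers was 5935 to 14756 CPM, against 29078 to 38025 CPM in the other lungs, while 7 erythroid markers summed to 1080 to 1759 CPM against 12.1 to 96.4 CPM, a range near that of control spleens (908 to 1016 CPM). B cell markers were also higher there, at 271 to 350 CPM against 48.2 to 95.9 CPM in the other lungs. Values of 4T07 lungs cannot be told apart from this difference in tissue content, and since all 3 libraries share it no value without them can be given for that group. In bulk tissue fewer cells of a type and less RNA per cell cannot be told apart.

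Ifitm1 was highest in 4T1 mice in every tissue. In control lungs it stood at 46.7, 73.6 and 64.6 CPM, in 67NR lungs at 45.97, 48.1 and 54.7 CPM, in 4T07 lungs at 97.2, 127 and 97.6 CPM, and in 4T1 lungs at 487, 596 and 213 CPM. All 3 4T1 lungs lay above all 9 other lungs, with library 39 the lowest of them. The 4T1/control log2 fold change was 2.82 ± 0.26 (SE, edgeR adjusted p = 3.03e-07), against 67NR it was 3.24 ± 0.27 (edgeR adjusted p = 5.54e-08), and against 4T07 it was 1.96 ± 0.25 (edgeR adjusted p = 3.19e-06). Between 4T07 and control lungs the difference was 0.87 ± 0.25, below the 2-fold limit although its edgeR adjusted p was 0.00859, and between 67NR and control lungs it was −0.41 ± 0.26 (edgeR adjusted p = 0.36).

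The spleens gave the same order at the top. Ifitm1 was at 73.2, 64.6 and 63.2 CPM in control spleens, 32.9, 44.4 and 28.5 CPM in 67NR spleens, 55.0, 82.8 and 99.4 CPM in 4T07 spleens, and 492, 317 and 359 CPM in 4T1 spleens. The lowest 4T1 spleen was at 317 CPM and the highest other spleen at 99.4 CPM, while the 4T07 and control spleens overlapped. The log2 fold change of 4T1 was 2.79 ± 0.25 against control (edgeR adjusted p = 9.60e-07), 3.82 ± 0.26 against 67NR (edgeR adjusted p = 9.83e-08) and 2.38 ± 0.24 against 4T07 (edgeR adjusted p = 4.54e-05). Ifitm1 was lower in 67NR than in control spleens by log2 −1.03 ± 0.24 (edgeR adjusted p = 0.0334), but this call was lost when either control library 7 or 8 or 67NR library 16 or 18 was left out, with adjusted p from 0.107 to 0.143.

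In the primary tumors Ifitm1 rose in steps from 67NR over 4T07 to 4T1. The 67NR tumors held 12, 22 and 4 counts, or 3.23, 6.15 and 1.13 CPM, close to the lower end of what these libraries can show. The 4T07 tumors were at 30.7, 47.5 and 51.1 CPM and the 4T1 tumors at 151, 101 and 122 CPM, so the 3 groups did not overlap. Relative to 67NR, the log2 fold change was 3.36 ± 0.37 for 4T07 (edgeR adjusted p = 5.63e-06) and 4.95 ± 0.37 for 4T1 (edgeR adjusted p = 1.15e-07), and 4T1 exceeded 4T07 by 1.59 ± 0.28 (edgeR adjusted p = 0.00145). Markers of epithelial cells rose in the same steps, and markers of fibroblasts rose from 67NR to the other 2 lines. The summed level of 5 epithelial markers was 16.9 to 31.1 CPM in 67NR, 161 to 229 CPM in 4T07 and 940 to 1074 CPM in 4T1 tumors, 3 ranges in the same order without overlap. The 6 fibroblast markers summed to 896 to 1117 CPM in 67NR, 4756 to 7059 CPM in 4T07 and 5693 to 8830 CPM in 4T1 tumors. Their 4T07 and 4T1 ranges overlapped, and edgeR called 0 of the 6 in 4T1/4T07 tumors (8.61% of all genes). Mature neutrophil markers also summed higher in 4T07 (1098 to 4772 CPM) and 4T1 tumors (759 to 1225 CPM) than in 67NR tumors (50.0 to 401 CPM). T cell markers were at 19.8 to 41.1 CPM in 67NR, 49.3 to 140 CPM in 4T07 and 27.6 to 95.3 CPM in 4T1 tumors. Monocyte and macrophage markers did not rise from 67NR. None of these markers was at 0 in a whole group. Tumor RNA comes from the cancer cells and from host cells together, and the part of any cell type in the Ifitm1 difference was not tested.

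**Figure D1:**
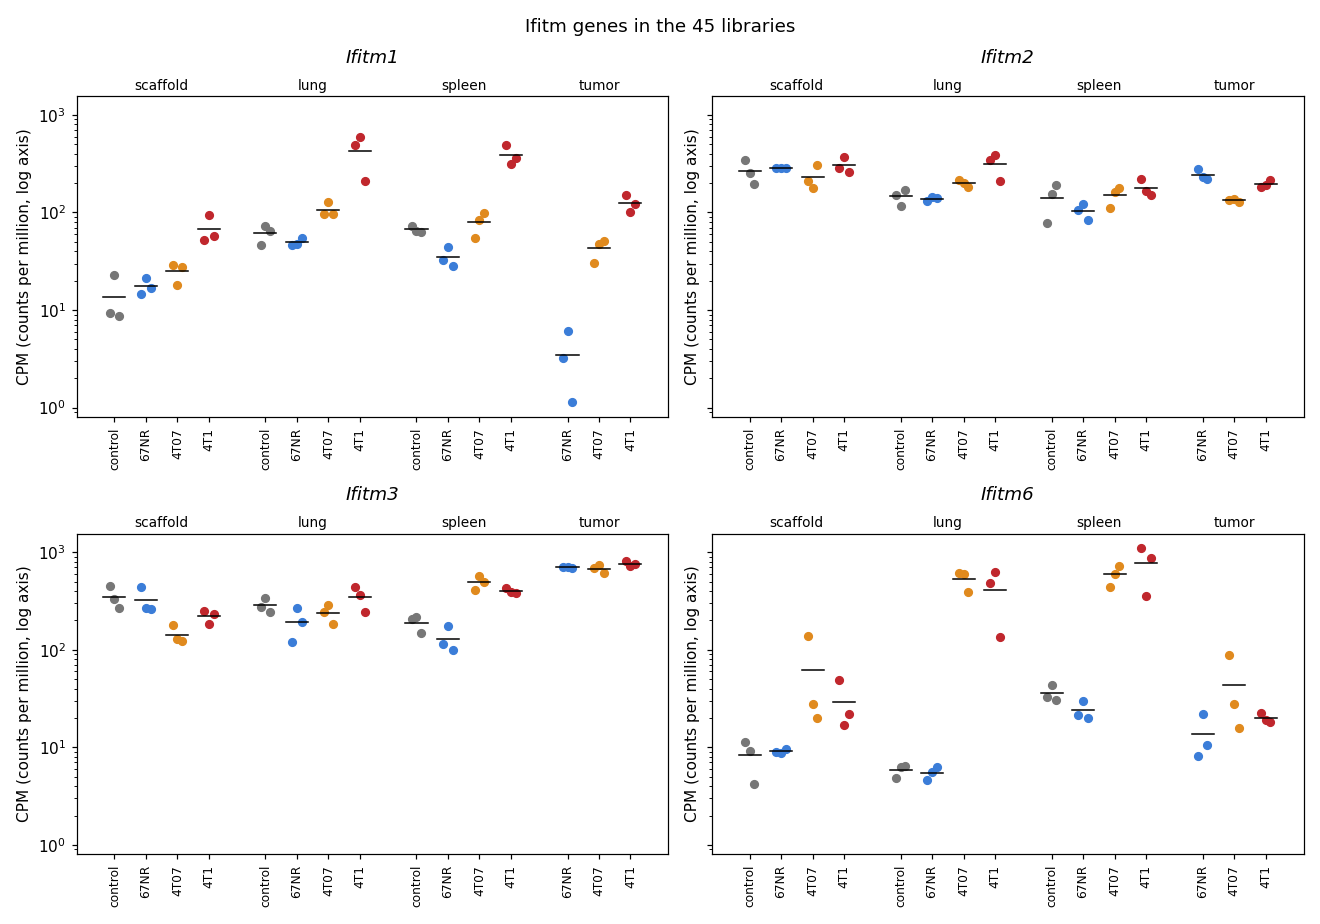
CPM (log axis) of Ifitm1, Ifitm2, Ifitm3 and Ifitm6 in the 45 libraries, by tissue and mouse group. Each point is a library and each bar the mean of 3. The 4T1 points of Ifitm1 lie above the other groups in every tissue, at 213 to 596 CPM in lungs and 317 to 492 CPM in spleens, whereas Ifitm6 is high in both 4T07 and 4T1 lungs and spleens.

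In the scaffolds, which the study used to select Ifitm1, the same gene stood at 9.44, 22.8 and 8.66 CPM in control mice, 14.8, 21.2 and 16.7 CPM in 67NR mice, 29.1, 18.1 and 27.6 CPM in 4T07 mice, and 51.8, 93.8 and 57.1 CPM in 4T1 mice. The 4T1 scaffolds lay above the 9 others, and the gene was chosen with these same scaffolds, as part of a set of genes. The log2 differences of 4T1 were 2.18 from control, 1.89 from 67NR and 1.45 from 4T07 scaffolds. The other members had log2 differences from control scaffolds of 0.06 (Ifitm2), −0.77 (Ifitm3) and 1.73 (Ifitm6), and from 4T07 scaffolds of 0.43, 0.68 and −1.03. Without 4T07 scaffold library 22 the last value was 0.31 in place of −1.03.

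Ifitm2 had smaller differences. It was at 153, 116 and 170 CPM in control lungs, 131, 143 and 139 CPM in 67NR lungs, 217, 199 and 183 CPM in 4T07 lungs and 343, 389 and 210 CPM in 4T1 lungs. The 4T1 lungs were above all control and 67NR lungs, but library 39 lay among the 4T07 lungs. The log2 fold change was 1.12 ± 0.19 against control (edgeR adjusted p = 4.91e-04) and 1.30 ± 0.19 against 67NR (edgeR adjusted p = 7.65e-05), and 0.60 ± 0.18 against 4T07, which was under 2-fold. The 4T1/control value fell to 0.96 without control library 5 and to 0.92 without 4T1 library 38, just under the 2-fold limit.

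In spleens Ifitm2 was at 78.6, 156 and 190 CPM in control, 107, 121 and 83.0 CPM in 67NR, 112, 164 and 177 CPM in 4T07 and 219, 166 and 151 CPM in 4T1 mice. Control and 4T1 spleens overlapped, and the 4T1/control difference of log2 0.60 ± 0.27 did not pass (edgeR adjusted p = 0.108). Against 67NR spleens it was 1.14 ± 0.27 (edgeR adjusted p = 0.0051), which fell just under 2-fold without 67NR library 18 (0.99) or 4T1 library 40 (0.97). In tumors Ifitm2 did not follow the rise of Ifitm1 from 67NR to 4T07 and 4T1. It was at 277, 230 and 221 CPM in 67NR, 136, 137 and 128 CPM in 4T07 and 181, 191 and 215 CPM in 4T1 tumors. The 4T07 tumors were lower than 67NR tumors by log2 −1.11 ± 0.15 (edgeR adjusted p = 3.81e-05), and 4T1 tumors by −0.51 ± 0.15 (edgeR adjusted p = 0.0171). From 4T07 to 4T1 tumors Ifitm2 rose like Ifitm1, without overlap, by 0.60 ± 0.15 (edgeR adjusted p = 0.0133). The −0.51 and 0.60 differences were under 2-fold.

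Ifitm3, the member best known for restricting virus entry, changed in spleens and in 4T07 scaffolds rather than in lungs or tumors. It was at 205, 215 and 149 CPM in control spleens, 115, 175 and 99.1 CPM in 67NR spleens, 413, 565 and 498 CPM in 4T07 spleens and 431, 386 and 381 CPM in 4T1 spleens. The spleens of both 4T07 and 4T1 mice lay above all control and 67NR spleens and overlapped each other. The log2 fold change against control was 1.55 ± 0.22 for 4T07 (edgeR adjusted p = 1.02e-04) and 1.33 ± 0.22 for 4T1 (edgeR adjusted p = 3.14e-04), and 4T1 against 67NR gave 1.97 ± 0.23 (edgeR adjusted p = 1.48e-05).

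In lungs Ifitm3 was at 276, 342 and 242 CPM in control, 121, 265 and 192 CPM in 67NR, 243, 286 and 182 CPM in 4T07 and 437, 362 and 246 CPM in 4T1 mice, and the groups overlapped except that 2 of the 3 4T1 lungs were the highest. The 4T1/control difference was 0.29 ± 0.24 (edgeR adjusted p = 0.542). Against 67NR lungs it was 0.96 ± 0.25 (edgeR adjusted p = 0.0194), just short of 2-fold, and it passed that limit without 67NR library 14 (1.28) or 4T1 library 39 (1.14). Tumors held 610 to 807 CPM with no comparison past the threshold. In scaffolds, 4T07 mice were lower than control mice, at 178, 129 and 122 CPM against 451, 330 and 266 CPM, a log2 fold change of −1.45 ± 0.26 (edgeR adjusted p = 0.00239).

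Ifitm6 had the largest fold changes of the family in lungs and spleens, and no difference between 4T1 and 4T07 was called for it. Control lungs were at 4.88, 6.31 and 6.47 CPM and 67NR lungs at 4.60, 5.52 and 6.22 CPM, whereas 4T07 lungs were at 606, 598 and 390 CPM and 4T1 lungs at 478, 627 and 136 CPM. The log2 fold change against control was 6.55 ± 0.43 in 4T07 lungs (edgeR adjusted p = 2.22e-10) and 6.14 ± 0.43 in 4T1 lungs (edgeR adjusted p = 4.73e-09), and the 4T1/4T07 difference was −0.42 ± 0.31 (edgeR adjusted p = 0.331). In spleens it was at 32.6, 43.8 and 30.8 CPM in control, 21.6, 30.1 and 20.2 CPM in 67NR, 443, 602 and 729 CPM in 4T07 and 1100.0, 352 and 864 CPM in 4T1 mice.

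The 6 spleens of 4T07 and 4T1 mice thus lay above the 6 of control and 67NR mice, with log2 fold changes against control of 4.23 ± 0.36 (edgeR adjusted p = 7.83e-07) and 4.70 ± 0.37 (edgeR adjusted p = 3.31e-07), and the difference between them was 0.47 ± 0.32 (edgeR adjusted p = 0.492). In 4T07 scaffolds Ifitm6 was at 138, 27.7 and 20.2 CPM against 11.3, 9.18 and 4.25 CPM in control scaffolds, or log2 2.76 ± 0.60 (edgeR adjusted p = 0.00781), with library 22 far above the other two. Without that library the value was 1.42 (edgeR adjusted p = 0.0395). Tumors were at 8.06, 22.1 and 10.4 CPM for 67NR, 87.9, 28.1 and 15.8 CPM for 4T07 and 22.3, 19.3 and 18.1 CPM for 4T1. The 4T07/67NR tumor value of 1.44 ± 0.49 passed (edgeR adjusted p = 0.0282) although the groups overlapped, and without 4T07 library 31 it was 0.40 (edgeR adjusted p = 0.434).

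Counted over the family, 3 of 4 members were called in 4T1/control lungs (4.61% of the 21937 genes tested were called), 3 in 4T1/67NR lungs (5.03%) and Ifitm1 alone in 4T1/4T07 lungs (23.5%). In spleens 3 of 4 were called for 4T1/control (19.9% of 21128 genes), all 4 for 4T1/67NR (20.7%) and Ifitm1 alone for 4T1/4T07 (2.33%). In tumors Ifitm1 was the single member called for 4T1/67NR (20.7% of 20508 genes) and for 4T1/4T07 (8.61%), and 3 of 4 were called for 4T07/67NR (28.9%), Ifitm1 and Ifitm6 upward and Ifitm2 downward. For 4T07/control, 1 member was called in lungs (29.0%), 2 in spleens (18.6%) and 2 in scaffolds (7.44%). For 67NR/control the counts were 0 in lungs (4.25%), 1 in spleens (2.26%) and 0 in scaffolds (0% of 22156 genes). In those lungs and scaffolds edgeR gave 1 and 0 members an unadjusted p under 0.05, and DESeq2 called 0 in both. A gene is called at an adjusted p under 0.05 in tumors and 0.10 elsewhere, with more than a 2-fold change.

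**Figure D2:**
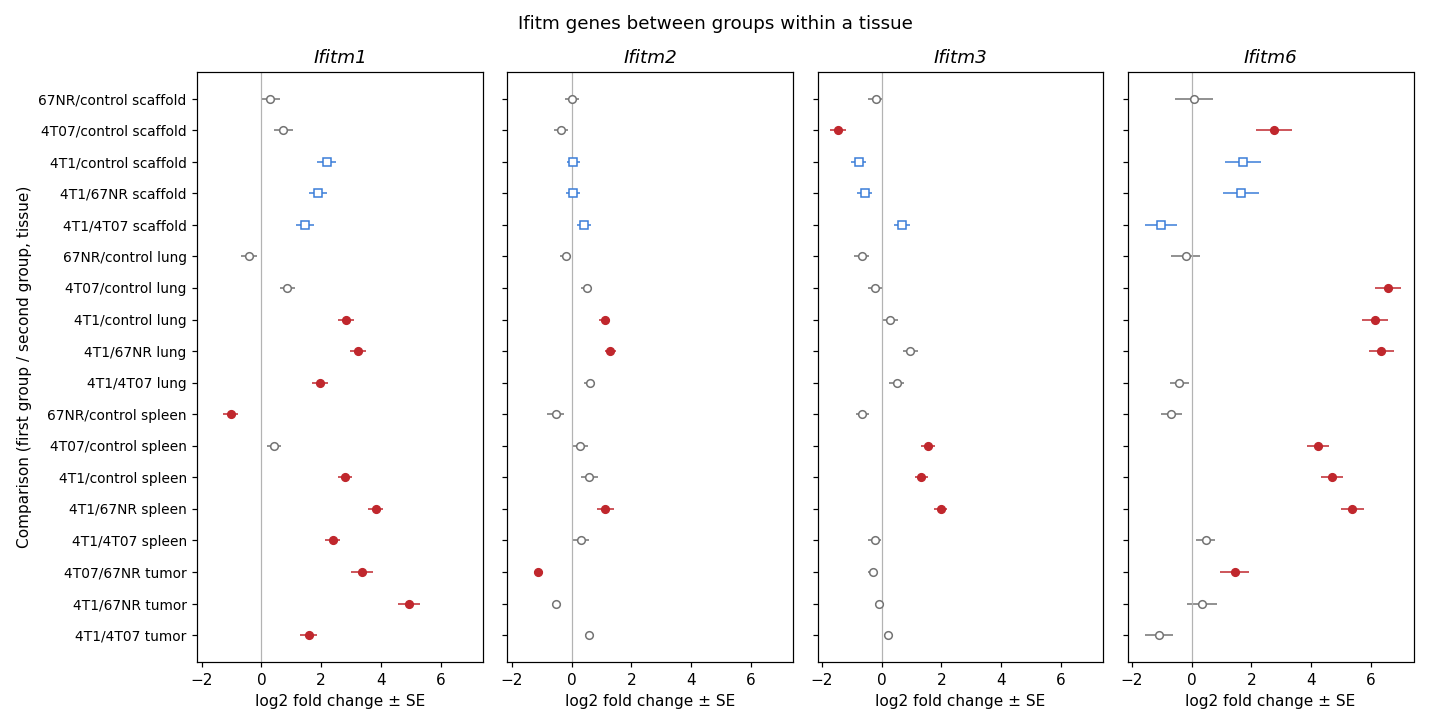
Log2 fold change ± SE (edgeR) of each Ifitm gene in each comparison within a tissue, the first group over the second. Filled red circles passed the threshold, open grey circles did not, and blue squares are the 4T1 scaffold comparisons, given without a test. Ifitm1 passed in all 8 comparisons of 4T1 in lungs, spleens and tumors, where the values run from 1.59 to 4.95.

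To see whether Ifitm1 moved with or apart from each neighbor inside a library, the log2 ratio of its count to that of each other member was taken. In lungs the Ifitm1/Ifitm2 ratio was 0.02 to 0.62 in 4T1 mice and −1.71 to −0.65 in the 9 other lungs, a difference in means of 1.59. The Ifitm1/Ifitm3 ratio was −0.21 to 0.72 in 4T1 lungs, above every other lung, with a difference of 1.97. In spleens these differences were 2.28 for Ifitm2 and 1.94 for Ifitm3, and in tumors 3.34 and 3.31. In each of the 6 cases all 3 4T1 libraries were above all others of the tissue, which gives the smallest p that a two-sided exact permutation test allows (0.00909 for 3 against 9 and 0.0238 for 3 against 6, adjusted over 9 ratios to 0.0205 and 0.0306). Ifitm1 was thus higher relative to Ifitm2 and Ifitm3 in 4T1 lungs, spleens and tumors. The test pooled the other groups of a tissue, which are distinct conditions, as a single set. Against a single group of 3 libraries the smallest exact permutation p is 0.1, so differences from each group are a description only. Split by group, the tumor differences were 5.67 (Ifitm2) and 5.24 (Ifitm3) from 67NR and 1.00 and 1.38 from 4T07. The 67NR tumors held only 4 to 22 Ifitm1 counts.

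The ratio to Ifitm6 behaved differently. In lungs it was 3.24 to 3.52 in control, 3.10 to 3.30 in 67NR, −2.64 to −2.00 in 4T07 and −0.07 to 0.65 in 4T1 mice, so the 4T1 lungs lay below control and 67NR and above 4T07. Against the 9 other lungs together the difference was −1.21 (exact permutation p = 0.409), and against control and 67NR lungs alone, without the 4T07 lungs, it was −3.06 (exact permutation p = 0.0238, adjusted over 3 ratios 0.0268). Spleens gave the same order, with 0.56 to 1.16 in control, 0.49 to 0.61 in 67NR, −3.01 to −2.86 in 4T07 and −1.27 to −0.15 in 4T1 mice, and a difference of −0.38 from the 9 others (exact permutation p = 0.7). In tumors the ratio was 2.39 to 2.76 in 4T1, −1.51 to 1.68 in 4T07 and −3.06 to −1.29 in 67NR mice, a difference of 3.51 (exact permutation p = 0.0238, adjusted 0.0306).

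**Figure D3:**
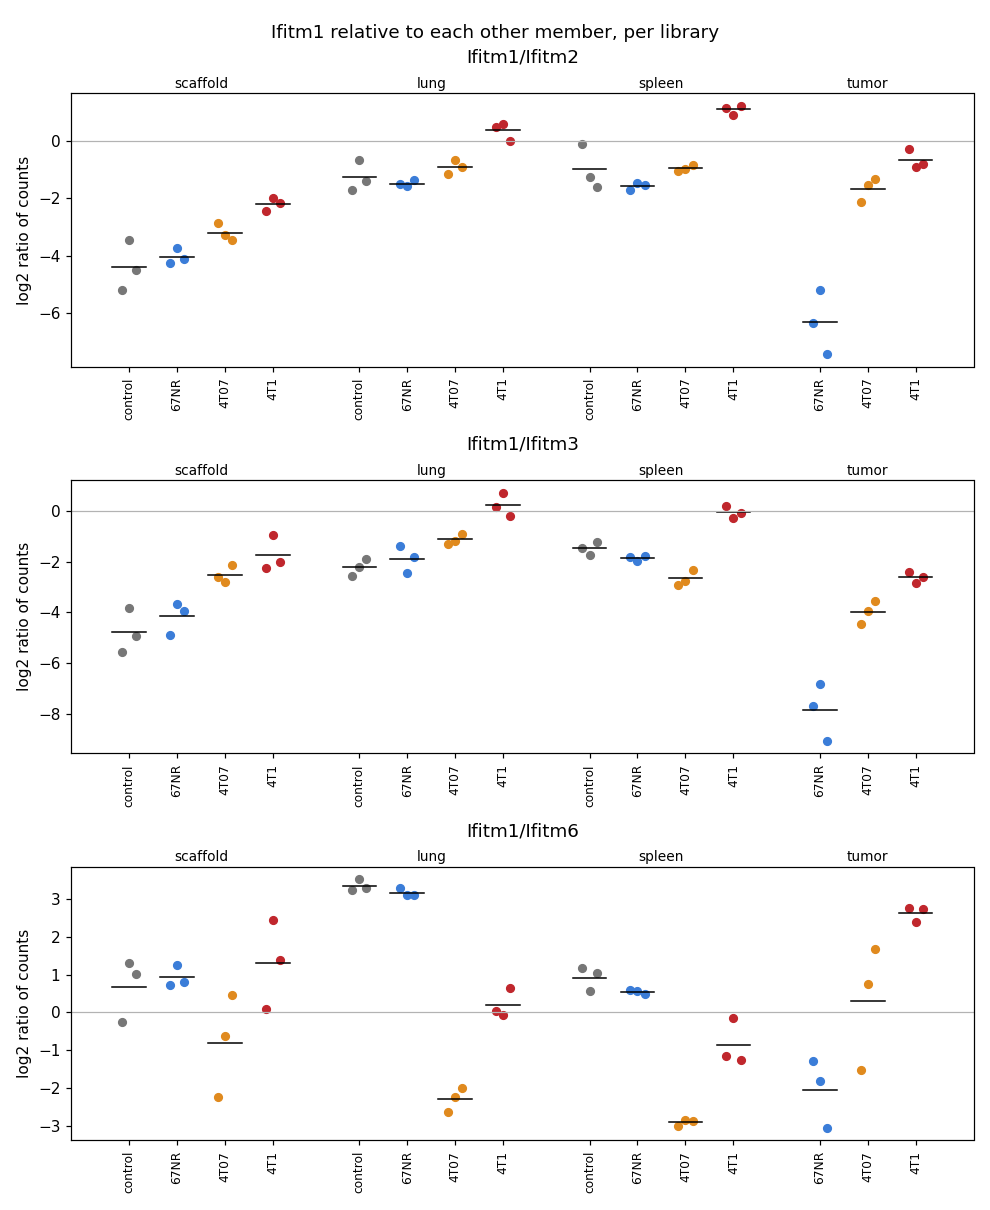
Log2 ratio of the Ifitm1 count to the Ifitm2, Ifitm3 and Ifitm6 counts in each library, with 0.5 added to each count. Points are libraries and bars the means of 3. The ratios to Ifitm2 and Ifitm3 are highest in 4T1 libraries in lungs, spleens and tumors, whereas the ratio to Ifitm6 in 4T1 lungs (−0.07 to 0.65) sits between 4T07 (−2.64 to −2.00) and control (3.24 to 3.52).

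The mice with high Ifitm6 in lungs and spleens also had high neutrophil transcripts there. The 10 mature neutrophil markers, among them S100a8, S100a9, Ly6g and Cxcr2, summed to 276 to 337 CPM in control and 67NR lungs, 21234 to 25157 CPM in 4T07 lungs and 11623 to 27185 CPM in 4T1 lungs. In spleens the sums were 945 to 1661 CPM in control and 67NR, 21119 to 26749 CPM in 4T07 and 11632 to 29357 CPM in 4T1 mice. No marker of this list was at 0 in a whole group. All 10 were called upward in 4T1/control lungs (4.61% of all genes were called) and all 10 in 4T1/control spleens (19.9%). For 4T07/control, 10 were called upward in lungs (29.0%) and 9 in spleens (18.6%).

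Per 1000 CPM of these markers, Ifitm6 ran from 11.7 to 37.5 CPM over the 12 lungs and spleens of 4T07 and 4T1 mice and from 14.5 to 32.0 CPM over the 12 of control and 67NR mice, ranges that overlap. Ifitm1 on the same scale was 13.3 to 27.3 CPM in 4T1 lungs and spleens and 2.21 to 5.04 CPM in 4T07 lungs and spleens, so the ranges of the groups did not overlap at like sums of markers. Control lungs, which hold few neutrophil transcripts, were at 139 to 234 CPM on this scale, and 67NR lungs at 144 to 198 CPM. Control spleens were at 38.9 to 65.6 CPM and 67NR spleens at 27.8 to 37.1 CPM. All of these lay above the 4T1 lungs and spleens. In tumors Ifitm1 was at 99.9 to 139 CPM per 1000 marker CPM in 4T1, 6.43 to 46.5 CPM in 4T07 and 15.3 to 50.8 CPM in 67NR mice. Ifitm6 was at 55.1 to 209 CPM on this scale in 67NR tumors and at 3.54 to 15.9 CPM in scaffolds. Both ranges reached outside that of lungs and spleens. The 4T1 libraries with the lowest marker sums, lung 39 and spleen 41, were also the lowest of their groups for Ifitm1 and Ifitm6. Most of the marker sum came from S100a8 and S100a9. They averaged 11458 and 10881 CPM in 4T07 lungs and 10848 and 8303 CPM in 4T1 lungs. Neither was called in 4T1/4T07 lungs or spleens. Of the 10 markers, 5 were higher and 1 lower in 4T1/4T07 lungs (23.5% of all genes were called). In spleens 4 were higher and 0 lower (2.33%). A scale by those markers alone was not made. The part of neutrophil number in the Ifitm1 and Ifitm6 differences was not tested, and the scale was chosen after the data had been seen.

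Transcripts of immature and mature neutrophils differed between 4T07 and 4T1 lungs. This comparison includes the 4T07 lungs that stood apart, and the part of their tissue content was not tested. The 11 granule genes of immature neutrophils, such as Mpo, Elane and Camp, summed to 4527 to 6229 CPM in 4T07 lungs and 448 to 1256 CPM in 4T1 lungs, and 10 of them were lower in 4T1 than in 4T07 lungs (median log2 −4.18, against 0.04 over all genes). Of the 10 mature markers, 5 were higher and 1 lower in 4T1 than in 4T07 lungs (23.5% of all genes were called). Cxcr2, the receptor for neutrophil-attracting chemokines, was higher (log2 1.42 ± 0.22, edgeR adjusted p = 3.33e-05), and Lcn2, a granule protein that binds siderophores, was lower (−1.11 ± 0.23, edgeR adjusted p = 6.17e-04). Ly6g averaged 257 CPM in 4T1 and 383 CPM in 4T07 lungs and was not called (−0.63 ± 0.30, edgeR adjusted p = 0.107). Lcn2 and Ly6g were picked after their values had been seen. In spleens, where Ifitm1 also separated the lines, granule genes overlapped (7182 to 9095 CPM in 4T07, 2458 to 7624 CPM in 4T1), a single granule gene, Fcnb, was lower in 4T1, and 4 of 10 mature markers were higher and 0 lower (2.33% of all genes were called), led by Csf3r, the receptor for granulocyte colony-stimulating factor (log2 1.81 ± 0.18, edgeR adjusted p = 3.35e-05).

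**Figure D4:**
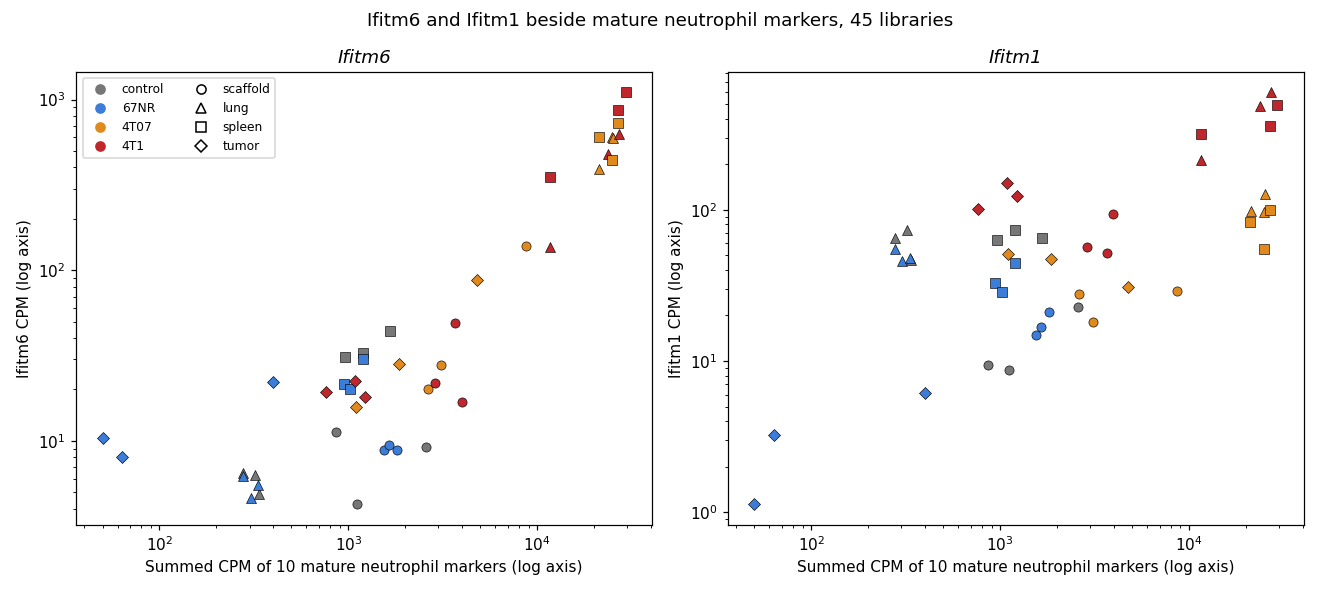
Ifitm6 (left) and Ifitm1 (right) CPM against the summed CPM of 10 mature neutrophil markers in the 45 libraries, on log axes. Colors are mouse groups and shapes are tissues. At marker sums of 11623 CPM and above the Ifitm6 points of 4T07 and 4T1 mice intermingle, whereas Ifitm1 is 55.0 to 127 CPM in 4T07 and 213 to 596 CPM in 4T1 lungs and spleens.

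The lung and spleen changes of each member were then compared in a fit of all 45 libraries, where a difference passed at an adjusted p under 0.10 with no limit on its size. For Ifitm1, the 4T1/control change differed between lung and spleen by log2 0.03 ± 0.42 (edgeR adjusted p = 1.00, where 15.5% of 27656 genes passed), and the 4T1/4T07 change by −0.32 ± 0.42 (adjusted p = 0.717, where 22.4% passed). Ifitm3 changed less in lung than in spleen: by −1.87 ± 0.35 for 4T07/control (edgeR adjusted p = 1.09e-04, 20.6% of genes) and by −1.04 ± 0.35 for 4T1/control (edgeR adjusted p = 0.048), while its 4T1/4T07 difference was 0.83 ± 0.35 (edgeR adjusted p = 0.0958). Ifitm6 changed more in lung than in spleen for 4T07/control, by 2.22 ± 0.76 (edgeR adjusted p = 0.0375). For 67NR/control 0 of the 4 passed by edgeR, as did 0.0470% of all genes, and 0 of the 4 had an unadjusted p under 0.05. The median over all genes was 0.17 for 4T1/control and 0.10 for 4T07/control, and all 4T07 values include the lungs that stood apart.

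Control mice gave the levels of the tissues themselves. Ifitm1 was higher than in scaffolds in both lungs (log2 1.91 ± 0.33, edgeR adjusted p = 5.90e-06) and spleens (2.08 ± 0.33, edgeR adjusted p = 1.32e-06), and lungs and spleens did not differ beyond their spread (−0.17 ± 0.30, edgeR adjusted p = 0.694). Ifitm2 was lower than in scaffolds in lungs (−1.13 ± 0.23) and spleens (−1.15 ± 0.24), and Ifitm3 was lower in spleens (−1.10 ± 0.25), all at an edgeR adjusted p of 3.79e-04 or below. Ifitm6 was higher in spleens than in scaffolds (1.91 ± 0.57, edgeR adjusted p = 0.00676) and lower in lungs than in spleens (−2.64 ± 0.59, edgeR adjusted p = 2.94e-04). Ifitm3 differed by −0.55 between lungs and scaffolds (edgeR adjusted p = 0.0821) and by 0.55 between lungs and spleens (edgeR adjusted p = 0.0738), both under the 2-fold limit. With an adjusted p under 0.10 and more than a 2-fold difference, the calls were 2 of 4 for lung against scaffold (26.8% of genes), 4 of 4 for spleen against scaffold (28.3%) and 1 of 4 for lung against spleen (33.3%).

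Within tissues the pairs of members were related to different degrees. Over the 12 lungs Pearson's r of log2(CPM + 1) was 0.93 between Ifitm1 and Ifitm2, 0.77 between Ifitm1 and Ifitm6 and 0.63 between Ifitm1 and Ifitm3. Over the 12 spleens the closest pair was Ifitm3 and Ifitm6, with r = 0.94, and Ifitm1 had 0.64 with Ifitm2, 0.67 with Ifitm3 and 0.76 with Ifitm6. Over the 9 tumors Ifitm1 and Ifitm2 had r = −0.51, and over the 12 scaffolds Ifitm1 and Ifitm3 had −0.42. These values describe libraries that share mouse groups, and no test was made of them.

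Ifitm6 had its closest likeness in neutrophil genes. Over all 45 libraries the 5 genes with the highest r among 12047 genes were Wfdc21 (0.96), Abca13 (0.95), Camp (0.95), which encodes a granule peptide, Ly6g (0.95), a surface marker of neutrophils, and Ngp (0.94), a granule protein. After the mean of each tissue was removed over the 36 scaffolds, lungs and spleens, they were S100a8 (0.98), S100a9 (0.97), Cstdc5 (0.97), Ly6g (0.97) and Wfdc21 (0.97). Ifitm1 ranked 326 in that list, with r = 0.71.

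The genes most like Ifitm1 were others. Over all 45 libraries they were Ccdc125 (0.85), Cd300lf (0.85), an inhibitory receptor of myeloid cells, Lonrf1 (0.83), Mcemp1 (0.82) and Pigb (0.80), and Ifitm6 ranked 84, with r = 0.65. With tissue means removed they were Cstdc4 (0.87), Socs3 (0.87), a feedback inhibitor of cytokine signaling, Stfa2l1 (0.86), Saa3 (0.86), an acute-phase protein, and Prok2 (0.84), a secreted peptide of neutrophils. On that scale Ifitm6 ranked 64 (r = 0.71), Ifitm2 ranked 72 (0.70) and Ifitm3 ranked 773 (0.38). The libraries share tissues and mouse groups, so these values are descriptive.

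Among the other genes that interferons induce, the counts differed between the comparisons in which Ifitm1 rose. Of 38 type I interferon targets tested, 4 were called upward and 0 downward in 4T1/control lungs (4.61% of all genes were called), with a median log2 of 0.06 against −0.0025 over all genes. The 3 with the lowest p were Oas3, an enzyme of the antiviral 2-5A pathway (21.4 against 1.61 CPM, log2 3.73 ± 0.35, edgeR adjusted p = 3.09e-07), Rsad2, the antiviral protein viperin (1.51 ± 0.22), and Oas2 (2.61 ± 0.41). In 4T1/4T07 lungs, where Ifitm1 also rose, 2 type I targets were upward and 8 downward, and 5 of 15 interferon gamma targets were downward and 0 upward (23.5% of all genes). Rsad2 averaged 263 CPM in 4T1 and 1213 CPM in 4T07 lungs, and this comparison includes the lungs that stood apart. In 4T1/control spleens 5 type I targets were upward and 6 downward (median −0.39 against −0.10 over all genes, of which 19.9% were called), and Ifi44, Ddx58, a sensor of viral RNA, and Parp14 fell by 1.36, 1.09 and 1.21 on the log2 scale. Of 15 interferon gamma targets, 0 were called in 4T1/control lungs by edgeR (0 at an unadjusted p under 0.05, and 0 called by DESeq2), and 2 were lower in spleens, Ciita, the master regulator of MHC class II genes, and Iigp1.

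In tumors Ifitm1 rose in all 3 comparisons. The type I and interferon gamma targets moved differently from each other against 67NR, whereas both lists went downward in 4T1/4T07. In 4T1/67NR, 0 of 38 type I targets were upward and 15 downward (median −0.61 against 0.09 over all genes, of which 20.7% were called), among them Irf7, a transcription factor of the interferon response (14.5 against 62.9 CPM, log2 −2.30 ± 0.25, edgeR adjusted p = 5.33e-06), and Ifit3b (−3.07 ± 0.31). Of 16 interferon gamma targets, 4 were upward and 2 downward in the same comparison (median 0.91), with Irf1, a transcription factor, higher (1.19 ± 0.19) and Socs1, an inhibitor of cytokine signaling, lower (−1.56 ± 0.26). In 4T1/4T07 (8.61% of all genes), 18 of 38 type I targets were downward and 0 upward, and 13 of 16 interferon gamma targets were downward and 0 upward (medians −0.93 and −1.78). Interferon gamma itself, Ifng, averaged 0.467 CPM in 4T1 and 4.84 CPM in 4T07 tumors (log2 −3.25 ± 0.53). The 4T1 mean lies below the level of 3 counts in those libraries (0.549 to 0.648 CPM), so the size of this change is uncertain. In 4T07/67NR (28.9% of all genes), 12 type I targets were upward and 6 downward (median 0.07 against 0.16 over all genes), and 14 of 16 interferon gamma targets were upward and 0 downward (median 2.39), led by Irf1 (891 against 143 CPM).

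Among 10 receptors and signal transducers of interferons, 0 were called in 4T1/control lungs by edgeR (3 at an unadjusted p under 0.05, and 0 called by DESeq2), and Ifnlr1, a subunit of the interferon lambda receptor, was higher in spleens (5.12 against 0.917 CPM). In 4T1/67NR tumors Jak2, a kinase of the interferon gamma receptor, was higher (115 against 25.1 CPM, log2 2.00 ± 0.19, edgeR adjusted p = 1.31e-06), together with Ifnlr1. Of the 10 interferon genes listed, 7 to 9 had no count in any library of a group, so most could not be tested. Of the 8 signature partners of Ifitm1 found in the table, Spon2 alone was called in 4T1/control lungs, at 6.81 against 16.7 CPM, and Fhl1 alone in 4T1/control spleens, at 30.0 against 16.7 CPM. For these lists, the shares of all genes called were 4.61% in 4T1/control lungs, 19.9% in 4T1/control spleens and 20.7% in 4T1/67NR tumors.

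The protein-coding genes next to the cluster were counted in the same way. Of the 10 on each side in the RefSeq order, 17 were tested in lungs, and edgeR called 0 in 4T1/control (5 at an unadjusted p under 0.05, and 0 called by DESeq2), with a median log2 of 0.24, and 0 in 4T1/67NR (6 at an unadjusted p under 0.05, and 0 called by DESeq2). In 4T1/4T07 lungs 3 of the 17 were upward and 2 downward, among them Scgb1c1 (2.29 ± 0.31), Urah (1.80 ± 0.35) and Ptdss2 (−1.75 ± 0.17). This comparison includes the 4T07 lungs that stood apart. Against control lungs, those lungs were lower in Scgb1c1 (−2.37 ± 0.31) and Urah (−2.40 ± 0.34) and higher in Ptdss2 (2.00 ± 0.18). In 4T1/control spleens 14 were tested and 4 were called, Ptdss2 and Rassf7 upward (1.32 ± 0.22 and 1.06 ± 0.22) and Pkp3, a desmosomal protein, downward (−1.50 ± 0.33) among them. In 4T1/67NR tumors 5 of 16 were upward and 2 downward, among them Urah (37.0 against 1.38 CPM) and Rnh1, the ribonuclease inhibitor (152 against 308 CPM). Over all genes the shares called were 4.61% in 4T1/control lungs, 5.03% in 4T1/67NR lungs, 23.5% in 4T1/4T07 lungs, 19.9% in 4T1/control spleens and 20.7% in 4T1/67NR tumors.

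The remaining Ifitm genes of the table were scarce. Ifitm5, a member of bone-forming cells that lies in the same cluster, had 0 to 19 counts in a library, Ifitm7 had 0 to 6 and Ifitm10 had 1 to 26. In 4T1/control lungs and spleens edgeR called 0 of them, with 0 and 1 at an unadjusted p under 0.05, and DESeq2 called 0 in both. In protein-coding transcripts of GENCODE vM1, 54 of the 1056 stretches of 50 bases in Ifitm1 also occurred in another gene, as did 67 of 602 in Ifitm2, 64 of 629 in Ifitm3 and 0 of 492 in Ifitm6. How many reads fall on these stretches was not measured.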

How the data were processed

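RNA of flash-frozen tissue was measured with QuantSeq 3′ FWD libraries carrying unique molecular identifiers. Per the labels, the authors used Trim Galore 0.5.0, STAR 2.6.0 and featureCounts, and they deposited raw counts per gene symbol, without normalization, for all 45 samples. The genome build, annotation, strand setting, treatment of reads with several matches and use of the identifiers are not given in the sources used here. In the table, 120 repeated symbols were added up, which left 55367. No 2 libraries were identical.

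Each tissue was fitted with all its groups in edgeR 4.0.16 (R 4.3.3), with TMM factors and its quasi-likelihood test, after genes of 10 counts or fewer in the tissue were left out. P-values were adjusted by Benjamini-Hochberg, and the thresholds are those of the study. Differences between lung and spleen changes, and between control tissues, came from a fit of all 45 libraries, at an adjusted p under 0.10, with the 2-fold limit for the control tissues alone. Fits across genes were tested on simulated data. Ratios within a library were compared with two-sided exact permutation tests (scipy 1.17.1). CPM and correlations used library totals without TMM factors.

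The members and gene lists were chosen with earlier results of these data known. From each list, up to 3 genes with the lowest p among those called are named, apart from an item that is not reported here. For Ifitm1 and Ifitm6, the 5 genes with the highest r among genes with a mean of at least 5 CPM are named. Promoter windows come from RefSeq (GRCm38.p6), in which all 4 members were matched by symbol. No protein sequence was used. The alternatives were the Wald test of DESeq2 1.42.0, its size factors used within edgeR, fits of all genes with a count, of genes reaching 10 counts in each library or of the compared groups alone, leaving out each library, and adding 5 to the counts of a ratio. The comparison of ratios without the 4T07 lungs and the scale by neutrophil markers were added after the data had been seen. When a lung or spleen was left out of the fit of all libraries, its genes and dispersion trend were kept. No paired analysis was possible because replicate numbers are not shared between groups and the mouse behind each tissue is not named.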

Additional observations from a re-analysis of the deposited data

Results flagged for a closer look

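In 4 cases the change of an Ifitm gene differed between lung and spleen by the interaction term of the 45-library edgeR fit, where 15.5% to 22.4% of all genes did. For 4T07/control, Ifitm3 rose in spleen and was not called in lung (−0.21), with a lung minus spleen difference of log2 −1.87, and Ifitm6 rose more in lung, with a difference of 2.22. For 4T1/control, Ifitm3 differed by −1.04. For 4T1/4T07, Ifitm3 differed by 0.83.

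The 4T07 values rest on lungs with few lung epithelial and many erythroid transcripts, and the part of that tissue content was not tested. The 4T1/control difference of Ifitm3 rests on no 4T07 library. It was no longer past the threshold without control lung library 5, control spleen library 9, 4T1 lung library 39 or 4T1 spleen library 40, with values from −0.98 to −0.84. The 4T1/4T07 difference of Ifitm3 was lost when any of 9 of its 12 libraries was left out, with values from 0.65 to 0.89.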

How the results depend on the processing

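Ifitm1 kept its direction and its call in all 8 comparisons of 4T1 in lungs, spleens and tumors under every alternative that gave a value. With at least 10 counts in every sample Ifitm1 could not be tested in tumors. With each library left out in turn, the count of called Ifitm genes ranged from 1 to 2 in 4T07/control lungs and in 4T1/4T07 tumors and from 0 to 1 in 67NR/control spleens. Without a count filter, Ifitm genes called in 4T1/4T07 tumors were 2, as Ifitm6 passed at −1.09. The Ifitm1/Ifitm6 ratio in lungs passed only without the 4T07 lungs, at −3.06, where 3 ratios in place of 9 were adjusted.

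Differences that were near 0 and not called changed sign. Leaving out libraries gave lung minus spleen ranges for Ifitm1 of −0.28 to 0.35 (4T1/control) and −0.63 to 0.00303 (4T1/4T07). For Ifitm2 the ranges were −0.000135 to 0.53 (4T07/control spleen), −0.18 to 0.30 (67NR/control scaffold) and −0.13 to 0.40 (4T07/control, lung minus spleen), for Ifitm3 −0.50 to 0.074 (67NR/control scaffold) and −0.30 to 0.25 (67NR/control, lung minus spleen), and for Ifitm6 −0.28 to 0.39 (67NR/control scaffold). DESeq2 size factors turned the 67NR/control lung minus spleen difference of Ifitm3 to −0.0014. The 4T07/67NR tumor call of Ifitm6 was lost with DESeq2 (adjusted p = 0.0978) and with the 2 groups alone (edgeR adjusted p = 0.058). It was also lost without 67NR library 19 or 21. Some calls were gained when a library was left out: Ifitm1 passed in 4T07/control scaffolds without control library 2 (1.31) and in 4T07/control lungs without control library 5 (1.021), Ifitm6 in 4T1/4T07 tumors without 4T07 library 33 (−1.47), and the 4T1/control lung minus spleen difference passed for Ifitm2 without control spleen library 7 (0.79) and for Ifitm6 in a fit of lungs and spleens alone (1.44).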
